A study of Mus musculus with 36 samples.

Results

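The genes described here encode the machinery that copies the genome in S phase and divides it in mitosis, 48 named genes in all. A probe set, the group of probes that reports a transcript on an Affymetrix array, was assigned to a gene where it was annotated to that symbol alone, and the probe set with the highest mean signal over the 36 arrays stood for the gene. This gave values for 47 of the 48 genes, among 18194 gene symbols on the array. They were 18 S phase genes and 29 mitosis genes, and Ccnb1 had no probe set annotated to it alone. Female C57BL/6 fetuses, wild type [ERα(+/+)] or ERα knockout null [ERα(-/-), called ERKO in the labels], were exposed through the dam from E8 to E19 to the vehicle DMSO, to bisphenol A (BPA) at 250 ng/kg/day, or to the synthetic estrogen ethinyl estradiol (EE2) at 10 ng/kg/day. The epithelium of 1 inguinal mammary gland per fetus and the peri-ductal stroma within about 100 µm of it were captured by laser, so each of 18 glands gave 2 arrays. Arrays of the same group and replicate number were taken as 1 gland, which the labels do not state. Each of the 12 groups of compartment, genotype and exposure held 3 arrays from independent litters. Because the methods took 1 fetus per genotype from a treated litter, ERα(+/+) and ERα(-/-) fetuses of an exposure may be littermates. The labels do not name litters, and the main fits treated all fetuses as independent. The knockout is germline, so ERα is missing from both compartments and from every other tissue of those fetuses, and the dams were heterozygous.

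In S phase, the minichromosome maintenance proteins (Mcm) are loaded on origins by Cdc6 and Cdt1 and, joined by the GINS complex, unwind the DNA, while ribonucleotide reductase (Rrm1, Rrm2), thymidylate synthase (Tyms) and thymidine kinase (Tk1) supply nucleotides. In mitosis, Cdk1 with its cyclins starts division, the spindle checkpoint holds chromosomes until they are attached, and motors and cytokinesis proteins separate the daughter cells. Transcripts of these genes rise in cycling cells and are low in resting cells, and the fetal mammary epithelium is known to grow as cords that invade the surrounding mesenchyme. In bulk tissue, fewer cycling cells and less of a transcript in each cell cannot be told apart.

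S phase genes are commonly controlled through E2F sites in their promoters, and mitosis genes through a cell cycle homology region (CHR) together with CCAAT boxes. To show these elements, 150 bases before the start site are given for the 3 S phase and the 3 mitosis genes with the largest differences between the compartments, among those with 1 promoter window and at least 1 motif there. The sequences are from RefSeq, assembly GRCm38.p6, written 5′ to 3′ on the strand of the gene, with each motif match, on either strand, in capitals. The letters searched were TTTGAA or TTCGAA for the CHR, CCAAT for the box of that name, and TTCCCGC or TTGGCGC or TTCGCGC or TTGCCGC for E2F. Cdc6 lies at chr11:98908001-98908150 on the plus strand, Mcm3 at chr1:20820313-20820462 and Mcm2 at chr6:88898781-88898930 on the minus strand. Kif23 lies at chr9:61946800-61946949 on the minus strand, Kif4 at chrX:100625915-100626064 on the plus strand and Aurka at chr2:172370571-172370720 on the minus strand.
Cdc6: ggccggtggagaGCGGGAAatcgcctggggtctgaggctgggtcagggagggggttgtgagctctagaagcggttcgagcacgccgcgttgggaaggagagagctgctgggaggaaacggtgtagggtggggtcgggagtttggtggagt
Mcm3: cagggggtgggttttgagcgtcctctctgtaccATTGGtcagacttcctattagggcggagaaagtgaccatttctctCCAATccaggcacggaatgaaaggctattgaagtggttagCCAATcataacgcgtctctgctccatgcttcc
Mcm2: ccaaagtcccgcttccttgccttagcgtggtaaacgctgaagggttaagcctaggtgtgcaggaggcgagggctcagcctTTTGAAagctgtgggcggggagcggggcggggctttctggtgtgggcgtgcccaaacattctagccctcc
Kif23: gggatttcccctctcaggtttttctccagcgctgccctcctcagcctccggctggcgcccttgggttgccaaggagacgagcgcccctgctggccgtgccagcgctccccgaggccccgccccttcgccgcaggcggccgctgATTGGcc
Kif4: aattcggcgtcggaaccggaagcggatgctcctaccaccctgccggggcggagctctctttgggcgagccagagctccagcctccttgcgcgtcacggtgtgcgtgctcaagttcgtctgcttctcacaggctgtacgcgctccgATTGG
Aurka: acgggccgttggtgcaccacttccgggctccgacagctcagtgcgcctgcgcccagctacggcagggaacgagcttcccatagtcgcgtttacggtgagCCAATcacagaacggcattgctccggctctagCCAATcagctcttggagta

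The Cdc6 window held 1 E2F match, Mcm3 held 3 CCAAT boxes and Mcm2 held 1 CHR match, while Kif23, Kif4 and Aurka held 1, 1 and 2 CCAAT boxes. Over the full windows, from 250 bases before to 50 after the start, 39 of the 47 genes had a sequence, 15 of S phase and 24 of mitosis. A CHR match was present in 19 of 24 mitosis genes (79.2%) and 3 of 15 S phase genes (20%), beside 21.7% of all 27025 genes with a window. An E2F match was present in 11 of 15 S phase genes (73.3%) and 4 of 24 mitosis genes (16.7%), beside 10.9% of all genes. CCAAT boxes were present in 79.2% of the mitosis and 53.3% of the S phase genes, beside 41.1% of all genes. A CHR match and a CCAAT box stood together in 75% of the mitosis genes, 13.3% of the S phase genes and 9.65% of all genes. The stroma against epithelium difference had a median of −1.09 on the log2 scale over the 22 genes with a CHR match and −0.99 over the 17 without, and −0.86 over the 15 with an E2F match and −1.17 over the 24 without. A match describes these letters only, and none was tested as a site.

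Array medians lay between 10.9 and 66.8, and the dimmest arrays were epithelium ERα(+/+) vehicle replicate 2, stroma ERα(+/+) vehicle replicate 2 and stroma ERα(+/+) BPA replicate 3. Epcam, an epithelial adhesion protein, had 2711 to 6839 in the epithelium against 144 to 2423 in the stroma, and Dcn, a proteoglycan of connective tissue, 31.5 to 1937 and 1805 to 4045. The collagen Col1a1 was present in both, at 2719 to 8838 in the epithelium and 8516 to 12639 in the stroma. The summed signal of 12 skeletal muscle genes was 14690 to 43088 on 5 arrays and at most 2612 on the others. That of 8 keratinised epidermis genes reached 18643 on the stroma array and 14749 on the epithelium array of ERα(+/+) vehicle replicate 3 and at most 697 on the other arrays, and this pair also had the highest epithelium marker sum of the stroma (8649) and the highest fibroblast marker sum of the epithelium (38343). The 5 arrays high in muscle were the stroma of ERα(+/+) EE2 replicate 2 and both compartments of ERα(-/-) BPA replicate 1 and of ERα(-/-) EE2 replicate 3. Esr1, which encodes ERα, had signals of 50.4 to 397 in vehicle stroma of ERα(+/+) fetuses and 26.3 to 37.6 in that of ERα(-/-) fetuses, whereas the genotypes overlapped after BPA (33.4 to 183 and 13.9 to 81.8) and after EE2 (20.3 to 213 and 25.7 to 53). Whether its probes lie within the deleted part is not known, so this checks the genotype labels weakly.

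The first question was whether cell cycle transcripts differed between the peri-ductal stroma and the epithelium of the same gland. Every one of the 47 genes had a lower mean log2 signal in the stroma, and 34 of them fell at an adjusted p under 0.05 in limma, with none higher. Of all 45101 probe sets, 15.9% were lower and 4.39% higher at that threshold, and 71.2% were lower in sign. The median difference was −0.98 (range −1.90 to −0.23) on the log2 scale, and −0.35 over all probe sets. After quantile normalization, which gives all arrays the same distribution, 25 of the 47 were lower by the same test (7.25% of all probe sets) and 45 were lower in sign (50.4%), with a median of −0.70 for the genes and −0.01 for all probe sets. Scaling each array to the same median left 15 called, beside 14% of all probe sets in either direction, and 44 lower in sign. S phase genes fell in 12 of 18 cases (median −0.88) and mitosis genes in 22 of 29 (median −1.05), and these were not tested against each other.

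**Figure D1:**
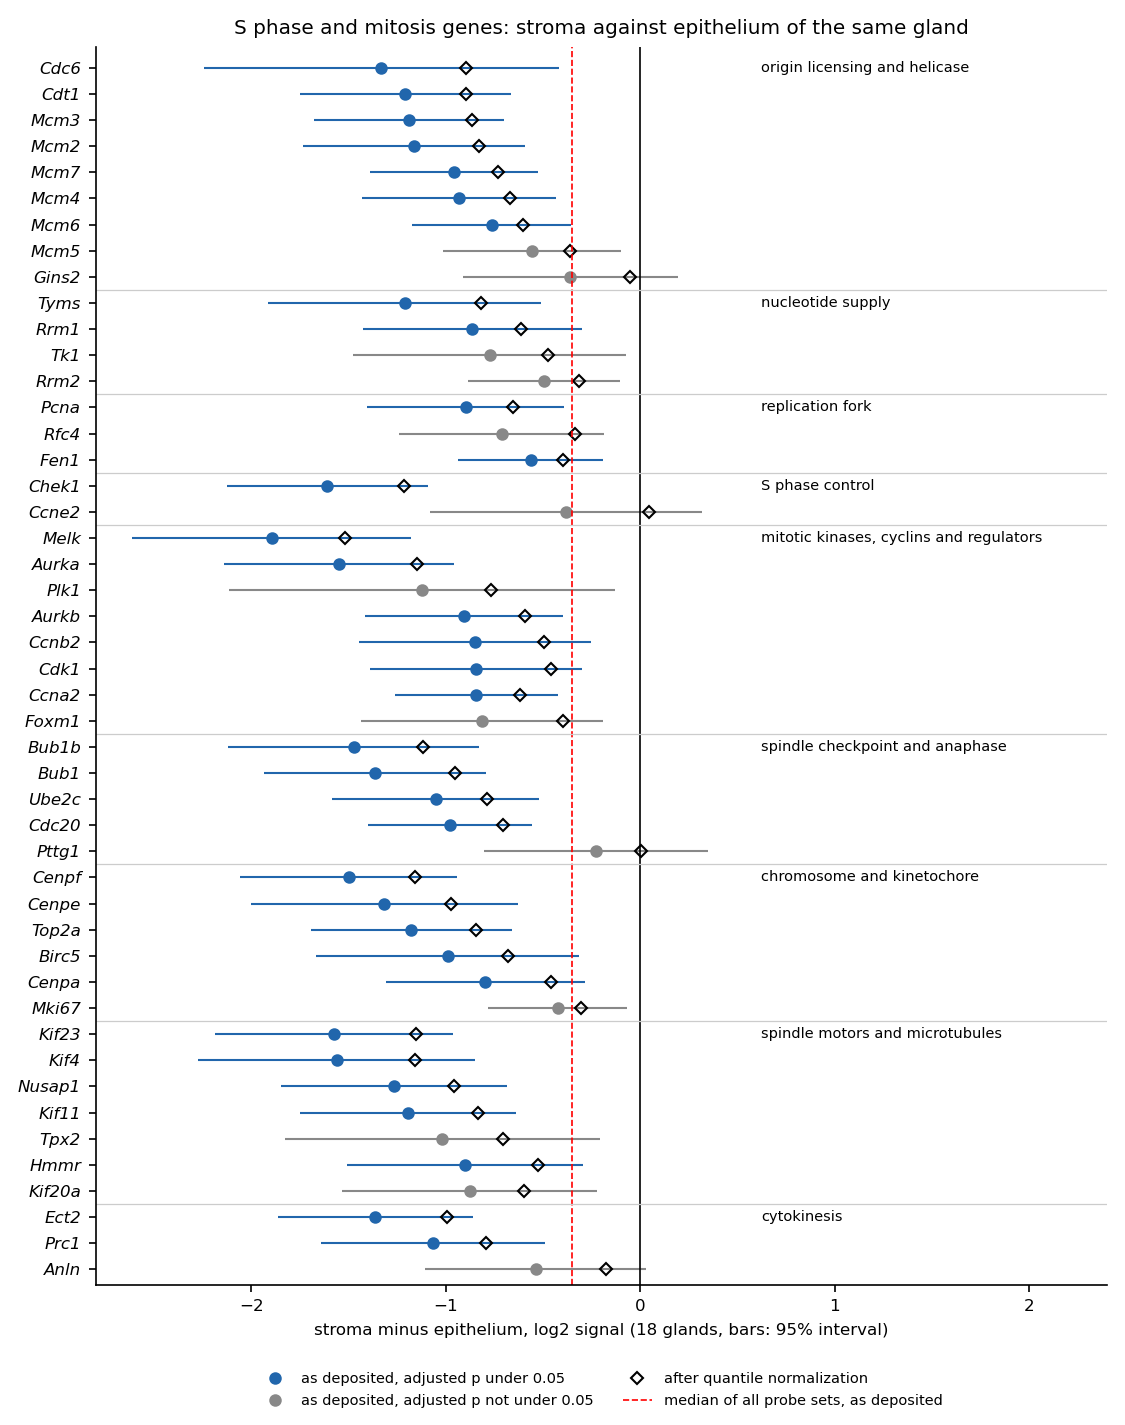
Difference between stroma and epithelium of the same gland in log2 signal for each of the 47 genes, grouped by role. Circles are the estimates with 95% intervals over 18 glands (blue where the adjusted p was under 0.05), diamonds the estimates after quantile normalization, and the dashed line the median of all probe sets, −0.35. All circles lie below 0, from −0.23 for Pttg1 to −1.90 for Melk.

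Among the origin licensing and helicase genes, 7 of 9 fell, with a median of −0.96. Cdc6, which loads the helicase on origins, had signals of 24.9 to 760 (median 213) in the stroma and 77.1 to 1995 (median 411) in the epithelium. The ranges overlapped, and Cdc6 was lower in the stroma of 16 of 18 glands, by 1.33 in the mean (log2 change −1.33, standard error 0.43, adjusted p = 0.0388 from limma). This call was lost in 4 of 10 other settings, quantile normalization among them, and when any 1 of 10 glands was left out. Mcm2, a subunit of the helicase, had 81.4 to 818 (median 251) in the stroma and 274 to 1595 (median 500) in the epithelium (log2 change −1.16, standard error 0.27, adjusted p = 0.00676). Mcm6, another subunit, had 1417 to 4643 (median 2963) and 2820 to 6388 (median 4605), with a log2 change of −0.76 (0.19, 0.0114). Cdt1, the partner of Cdc6 in licensing, was lower in the stroma in 18 of 18 glands (−1.21, adjusted p = 0.00405). Mcm5 and the GINS subunit Gins2 did not pass, with −0.56 and −0.36.

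Of the 9 roles, nucleotide supply had a median of −0.82 and the replication fork of −0.71, and the roles were not tested against each other. Of the 4 nucleotide genes, Tyms (−1.21, adjusted p = 0.0175) and Rrm1 (−0.86, adjusted p = 0.0313) fell. Tk1 had −0.77 and Rrm2 −0.49 without passing, and none passed after quantile normalization. For Rrm2 and Tyms the outcome depended on the probe set. The other Rrm2 probe sets passed as lower (−0.91, adjusted p = 0.0192, and −1.31, adjusted p = 0.0455 from limma). The chosen Tyms probe set was dim (mean signal 64), and the other Tyms probe sets did not pass (−0.09, −0.97 and −1.52). Rrm2, the regulated subunit of ribonucleotide reductase, had 1048 to 3883 (median 2271) in the stroma and 1881 to 4385 (median 3163) in the epithelium. Pcna, the sliding clamp of the polymerase, had 357 to 2179 (median 1233) in the stroma and 1318 to 3344 (median 2020) in the epithelium and fell by 0.90 (log2 change −0.90, standard error 0.24, adjusted p = 0.0149 from limma). The flap endonuclease Fen1 fell in 18 of 18 glands (−0.56, adjusted p = 0.0336), and Rfc4, of the clamp loader, did not pass (−0.71, adjusted p = 0.0541). Of the S phase control genes, the checkpoint kinase Chek1 had 27.5 to 187 (median 98.8) in the stroma and 142 to 406 (median 263) in the epithelium. Chek1 was lower in the stroma of every gland (log2 change −1.61, standard error 0.24, adjusted p = 0.000334), whereas the cyclin gene Ccne2 was lower in 11 of 18 glands (−0.38, adjusted p = 0.447).

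The mitotic kinases, cyclins and regulators fell in 6 of 8 cases. Melk, a kinase expressed in dividing cells, had 3.1 to 250 (median 118) in the stroma and 56.1 to 566 (median 328) in the epithelium. It had the largest difference of the 47 genes, −1.90 (standard error 0.34, adjusted p = 0.00120 from limma), and was lower in 17 of 18 glands. Aurka, the spindle pole kinase, had 15 to 194 (median 69.6) and 18.7 to 434 (median 252), a log2 change of −1.55 (0.28, 0.00126). The other Aurka probe set was dim (mean signal 31) and did not pass (−0.39, adjusted p = 0.443 from limma). Cdk1, the kinase that starts mitosis, had 86.6 to 778 (median 243) in the stroma and 219 to 986 (median 480) in the epithelium. Its log2 change was −0.84 (standard error 0.26, adjusted p = 0.0290), and it was −0.46 and did not pass after quantile normalization. The polo kinase gene Plk1 (−1.12, adjusted p = 0.102) and the transcription factor gene Foxm1 (−0.81, adjusted p = 0.0618) did not pass.

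Of 5 genes of the spindle checkpoint and anaphase, 4 fell. The checkpoint kinase genes Bub1b and Bub1 had log2 changes of −1.47 (standard error 0.30, adjusted p = 0.00324) and −1.36 (0.27, 0.00246). Bub1 had 14.3 to 166 in the stroma and 82.7 to 406 in the epithelium, and both genes were lower in the stroma of 17 of 18 glands. The other Bub1 probe set did not pass (−1.18, adjusted p = 0.0655 from limma). Cdc20, an activator of the anaphase-promoting complex, was lower in all 18 glands (−0.98, adjusted p = 0.00294). Pttg1, or securin, which guards sister chromatid cohesion, had 102 to 2921 (median 1832) in the stroma and 1013 to 2695 (median 1858) in the epithelium. It was lower in the stroma in 9 of 18 glands, with −0.23 (95% interval −0.80 to 0.35, adjusted p = 0.593).

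Chromosome and kinetochore genes fell in 5 of 6 cases. Cenpf and Cenpe, kinetochore proteins, had log2 changes of −1.50 (standard error 0.26, adjusted p = 0.00109) and −1.32 (0.32, 0.00963). Top2a, the topoisomerase that untangles chromosomes, had 87 to 834 (median 459) in the stroma and 565 to 1448 (median 933) in the epithelium, and fell in 18 of 18 glands (log2 change −1.18, standard error 0.24, adjusted p = 0.00338 from limma). Mki67, the antigen of the Ki-67 proliferation stain, had 3116 to 5869 (median 4976) in the stroma and 5156 to 7613 (median 6478) in the epithelium. It was lower in 17 of 18 glands, but by −0.42 (standard error 0.17, adjusted p = 0.0874), which did not pass. Spindle motors and microtubule genes fell in 5 of 7 cases, with Kif23 at −1.57 (standard error 0.29, adjusted p = 0.00144), Kif4 at −1.56 (0.34, 0.00435) and Nusap1 at −1.27 (0.27, 0.00454). Kif23 and Kif4 are motors of the late spindle, and Nusap1 binds spindle microtubules. Of the cytokinesis genes, Ect2, which is needed for cytokinesis, had 26.3 to 312 in the stroma and 42.8 to 450 in the epithelium and fell in 18 of 18 glands (−1.36, adjusted p = 0.00101), Prc1 fell (−1.07, adjusted p = 0.0119) and Anln did not pass (−0.54, adjusted p = 0.168).

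**Figure D2:**
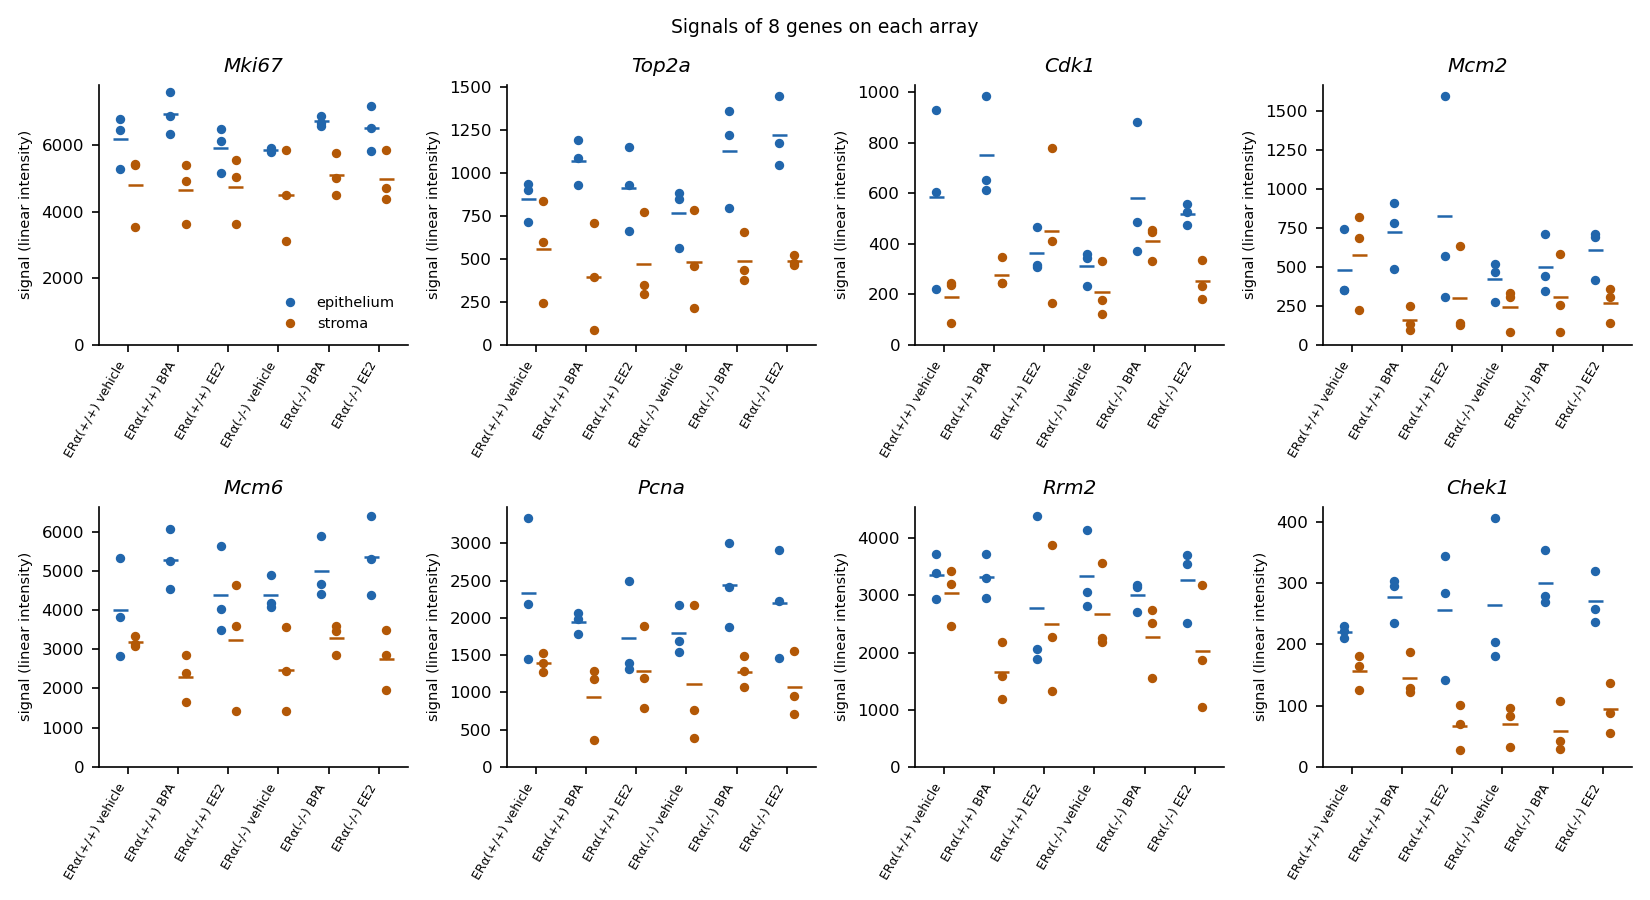
Signal on each array, in linear intensity, of Mki67, Top2a, Cdk1, Mcm2, Mcm6, Pcna, Rrm2 and Chek1, by genotype and exposure, with the epithelium in blue and the stroma in brown. Points are arrays and bars are group means (n = 3). Stroma arrays had Mki67 signals of 3116 to 5869, against 5156 to 7613 on epithelium arrays.

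Single glands varied. Between 22 and 47 of the genes were lower in the stroma of a gland (median 42), all 47 in 2 glands, and the median over the genes was below 0 in 17 of 18 glands, down to −2.09. The exception was ERα(-/-) vehicle replicate 1, with 22 genes lower and a median of 0.02. Its epithelium array had the lowest summed signal of the epithelium markers among the epithelium arrays (13962, against a median of 20906), and its stroma array the lowest among the stroma arrays (825). The part of these values in the result was not tested. Without this gland 33 genes were called, with a median of −1.05. ERα(+/+) vehicle replicate 3, the pair high in keratinised epidermis markers, had a median of −0.31, and without it 32 genes were called, with a median of −0.98. Of the 47 genes, 6 were lower in all 18 glands (Cdt1, Fen1, Chek1, Cdc20, Top2a and Ect2), as were 1.57% of all probe sets, and 29 were lower in at least 16 glands, as were 8.44% of all probe sets. For none of the 47 genes did all stroma arrays lie below all epithelium arrays, which held for 0.191% of all probe sets.

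Within subsets of the glands fewer genes passed. After vehicle alone 0 of the 47 were called by limma (lowest adjusted p = 0.0824, for Kif11), beside 1.52% of all probe sets, and 14 were lower at an unadjusted p under 0.05, beside 8.62% of all probe sets. After BPA 4 were lower (2.73% of all probe sets) and after EE2 4 were lower (3.06%). In ERα(+/+) fetuses 7 were lower (4.38%) and in ERα(-/-) fetuses 10 (6.76%). The medians of the 47 genes in these 5 subsets were −0.72, −1.21, −1.05, −0.95 and −1.01, beside −0.06, −0.56, −0.45, −0.24 and −0.46 for all probe sets. The interaction of genotype with compartment called none of the 47 genes (0% of all probe sets; lowest adjusted p = 0.925 from limma, for Chek1), and 0 had an unadjusted p under 0.05, beside 1% of all probe sets higher and 4.41% lower.

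Further genes of the same processes were counted too. Their lists and the marker lists were chosen with earlier results of these data known, so they are not independent support. In this comparison 15.9% of all probe sets were lower and 4.39% higher, and 7.25% were lower after quantile normalization. Of 69 further mitosis genes, 49 were lower in the stroma and none higher (median −0.98), and 26 were lower after quantile normalization. Spag5, a spindle protein, and Tacc3, which stabilises spindle microtubules, fell by 1.75 and 1.15 on the log2 scale. Of 48 further replication genes, 29 were lower and none higher (median −0.94), and 14 were lower and 1 higher after quantile normalization. Hells, a chromatin remodeller, and Uhrf1, which maintains DNA methylation, fell by 2.30 and 1.41 on that scale. Of 11 genes of cell cycle exit, 1 was higher (the Cdk inhibitor gene Cdkn1c, 1.30, adjusted p = 0.00357) and 2 were lower (Ccng2, −0.98, and Cdkn1b, −0.62). Markers of other cells moved in the same comparison, with 19 of 20 epithelium markers lower in the stroma and 14 of 14 fibroblast, 9 of 9 endothelium, 9 of 10 leukocyte, 7 of 7 adipocyte and 2 of 6 erythroid markers higher, and no skeletal muscle or keratinised epidermis marker called. The summed signal of the epithelium markers was 825 to 8649 in the stroma and 13962 to 27747 in the epithelium, that of the fibroblast markers 37189 to 64364 and 8353 to 38343, and the part of this mixture in the differences was not tested.

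More than 1 probe set was present for 33 of the 47 genes. Of 110 probe sets in all, 107 had a lower mean in the stroma, as did 71.2% of all probe sets on the array. As lower 66 passed (15.9% of all probe sets) and as higher none (4.39%). The second probe set by signal was lower for 33 of 33 genes, with 16 passing. Probe sets of the same gene are not independent of each other. The chosen probe sets of 9 genes were of the type _x_at and of 6 of the type _s_at, whose probes can match related transcripts. The values of Mcm4, Mcm5, Mcm6, Mcm7, Rrm2, Fen1, Aurkb, Foxm1 and Cdc20, and of Mcm2, Rfc4, Chek1, Bub1b, Pttg1 and Prc1, are less certain for this. Without the 3 glands of high muscle signal 21 genes passed over 15 glands, beside 12.9% of all probe sets in either direction, with a median of −0.97.

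**Figure D3:**
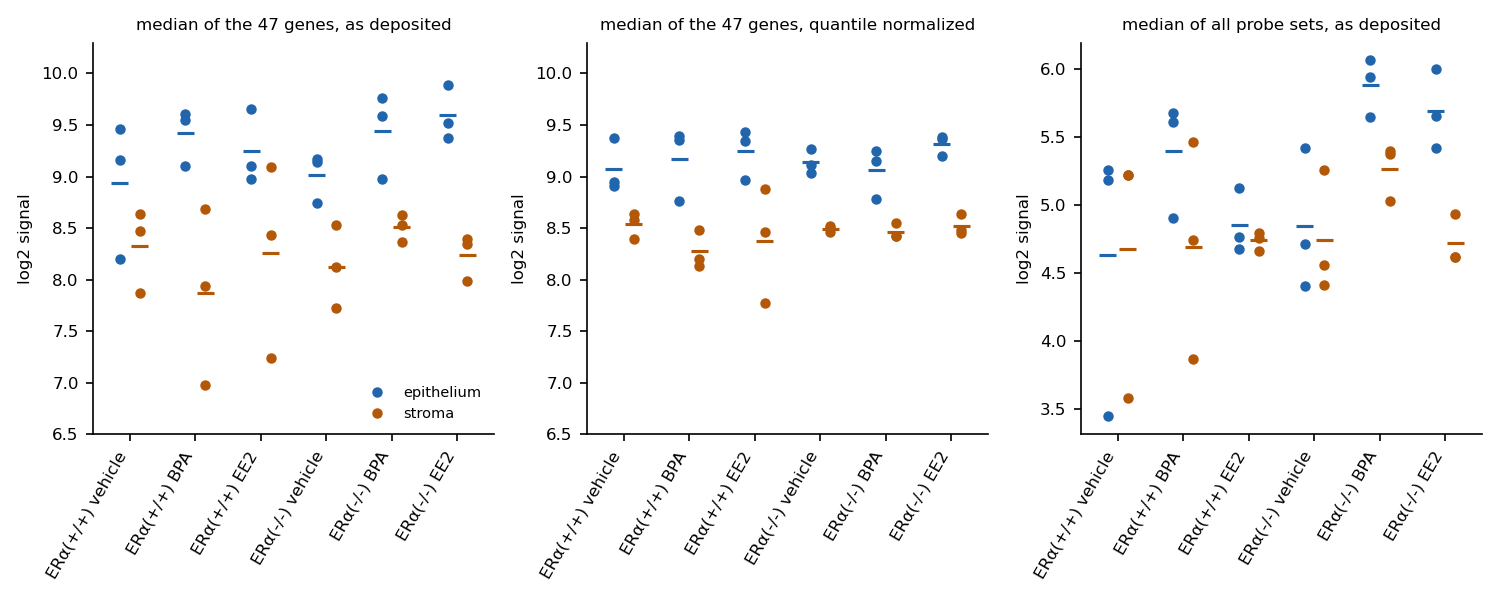
Median log2 signal of the 47 genes on each array as deposited and after quantile normalization, and of all probe sets as deposited, by genotype and exposure, with the epithelium in blue and the stroma in brown. Points are arrays and bars are means (n = 3). As deposited, the median of the 47 genes lay between 6.98 and 9.09 on the stroma arrays, against 8.20 to 9.89 on the epithelium arrays.

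The level of the 47 genes moved with the brightness of the array. Over the 18 stroma arrays, their median log2 signal correlated with that of all probe sets (Pearson r = 0.66, Spearman coefficient 0.75, adjusted p = 0.00662 and 0.0024, permutation test over 4 relations), and r was 0.54 without the 2 farthest arrays. Over the 18 epithelium arrays r was 0.69 and the Spearman coefficient 0.50 (adjusted p = 0.00662 and 0.0502, permutation test), and r was 0.43 without the 2 farthest. The correlation with the median epithelium marker in the stroma was 0.47 (Spearman coefficient 0.51) and with the median fibroblast marker in the epithelium 0.34 (Spearman coefficient 0.23), with adjusted p of 0.0620 and 0.167 for r and 0.0502 and 0.363 for the Spearman coefficient (permutation test), and r was 0.59 and 0.37 without the 2 farthest. Within groups r was 0.66 and 0.56 with array brightness, 0.46 with the epithelium markers and 0.14 with the fibroblast markers. The permutations took no account of the groups. As deposited, the marker medians may carry array brightness too, so these relations do not separate marker content from brightness. Between pairs of the 47 genes the deviations from the group means had a median r of 0.40 over the 18 stroma arrays and 0.31 over the 18 epithelium arrays, as a description. Mki67 was closest to the mean of the other genes in the stroma (r = 0.92) and Prc1 in the epithelium (r = 0.88), while Foxm1 (0.07) and Cdk1 (−0.42) were farthest.

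The next question was whether fetal exposure to BPA or EE2 moved these genes within a compartment, for both genotypes together. In the epithelium no gene of the 47 was called for BPA against vehicle by limma, nor was any of all probe sets (0%). At an unadjusted p under 0.05, 6 were higher and none lower, beside 17.3% of all probe sets higher. Markers of several other cells were higher in the same comparison without passing the adjusted test, with medians of 2.22 for endothelium (5 of 9 at an unadjusted p), 1.81 for adipocytes, 1.47 for leukocytes and 0.96 for fibroblasts, and of 1.45, 1.05, 0.66 and 0.54 after quantile normalization, and their part in the changes was not tested. Skeletal muscle and keratinised epidermis markers had medians of 0.02 and −0.46, and of −0.74 and −1.25 after quantile normalization. After BPA 40 of the 47 were higher in sign (84.3% of all probe sets), with a median of 0.37, beside 0.68 for all probe sets, and after quantile normalization the median was −0.03 and none passed at an unadjusted p (3.63% of all probe sets higher and 4.8% lower). Over both genotypes, Bub1b had 478 to 802 after BPA and 96.3 to 542 after vehicle, overlapping. Tk1 had 378 to 662 and 112 to 319, without overlap, but the share of all probe sets without overlap was not counted. The BPA arrays were also brighter, with mean log2 array medians of 5.40 in ERα(+/+) and 5.88 in ERα(-/-), against 4.63 and 4.85 after vehicle. Bub1b and Tk1 had log2 changes of 1.26 (standard error 0.42, adjusted p = 0.211) and 1.16 (0.39, 0.214). Tpx2, a spindle assembly factor, had 1.07 (0.40, 0.228), Aurka 1.60 (0.66, 0.248) and the centromeric histone gene Cenpa 0.79 (0.35, 0.269). None of these passed in limma. For EE2 against vehicle, 0 of the 47 were called (0.00222% of all probe sets higher) and 4 were higher at an unadjusted p (8.15%), with a median of 0.34 beside 0.40 for all probe sets. This median was 0.07 after quantile normalization and −0.20 with arrays scaled to one median, and that of BPA was −0.53 with the latter. Without the epithelium array of ERα(+/+) vehicle replicate 3 the medians were 0.43 for BPA and 0.33 for EE2. Endothelium markers had a median of 1.62, leukocyte markers 1.22 and adipocyte markers 1.02 for EE2, none called. Those of skeletal muscle and keratinised epidermis had −0.02 and −0.17. The smallest p were those of Tk1 (1.07, adjusted p = 0.509), Bub1b (1.02, 0.529), Tyms (2.01, 0.553), Cenpf (1.19, 0.558) and Rrm1 (0.75, 0.576). BPA and EE2 share the vehicle arrays, so that their changes are not independent. For BPA against EE2 none was called (0%), and Ccne2 alone had an unadjusted p under 0.05 (1.16, adjusted p = 1.00), beside 3.65% of all probe sets higher. Tpx2, Cdk1, Hmmr and Cenpe followed, with 0.73, 0.56, 0.56 and −0.59.

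In the stroma no gene of the 47 was called for BPA against vehicle (0% of all probe sets) or at an unadjusted p (3.19% of all probe sets higher and 1.35% lower), with a median of −0.04 beside 0.16 for all probe sets. Cdk1 had 0.88 (95% interval −0.13 to 1.89), Aurkb −0.86, Cenpf 0.91, Ccna2 −0.65 and Cenpe 0.87, all at an adjusted p of 0.993 from limma. For EE2 against vehicle 0 of the 47 were called (0%) and 2 were lower at an unadjusted p (2.62%), with a median of 0.02 beside 0.00 for all probe sets. Prc1, which bundles the microtubules of the midzone, had 95.7 to 626 after EE2 and 278 to 1571 after vehicle, overlapping, and −1.47 (95% interval −2.70 to −0.25, adjusted p = 0.996). Foxm1 had −0.97, Cenpe 1.27, Ccna2 −0.72 and Cdk1 0.74 at the same adjusted p. For BPA against EE2 none passed (0%), adjusted or not, with 2.94% of all probe sets higher and 0.807% lower at an unadjusted p, and Gins2 (−0.81), Foxm1 (0.53), Anln (−0.71), Prc1 (0.70) and Cenpf (0.59) had the smallest p. Over the 47 genes, the 95% interval reached a median of 1.26 to either side of the estimate in the stroma, against 0.84 in the epithelium, so that the data leave room for changes of this size in most of these genes. The interactions of exposure with compartment called none of the 47 genes (0% of all probe sets). For BPA none had an unadjusted p under 0.05 (7.08% of all probe sets lower), and Tk1 came first (−1.54, adjusted p = 0.672 from limma), before Mcm2 (−1.24), Gins2 (−1.11), Bub1b (−1.23) and Bub1. For EE2 Prc1 (−1.62, adjusted p = 0.616) and Foxm1 (−1.54, adjusted p = 0.664) were lower at an unadjusted p (6.56%), before Bub1b (−1.34), Mcm2 (−0.98) and Tk1 (−1.17).

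**Figure D4:**
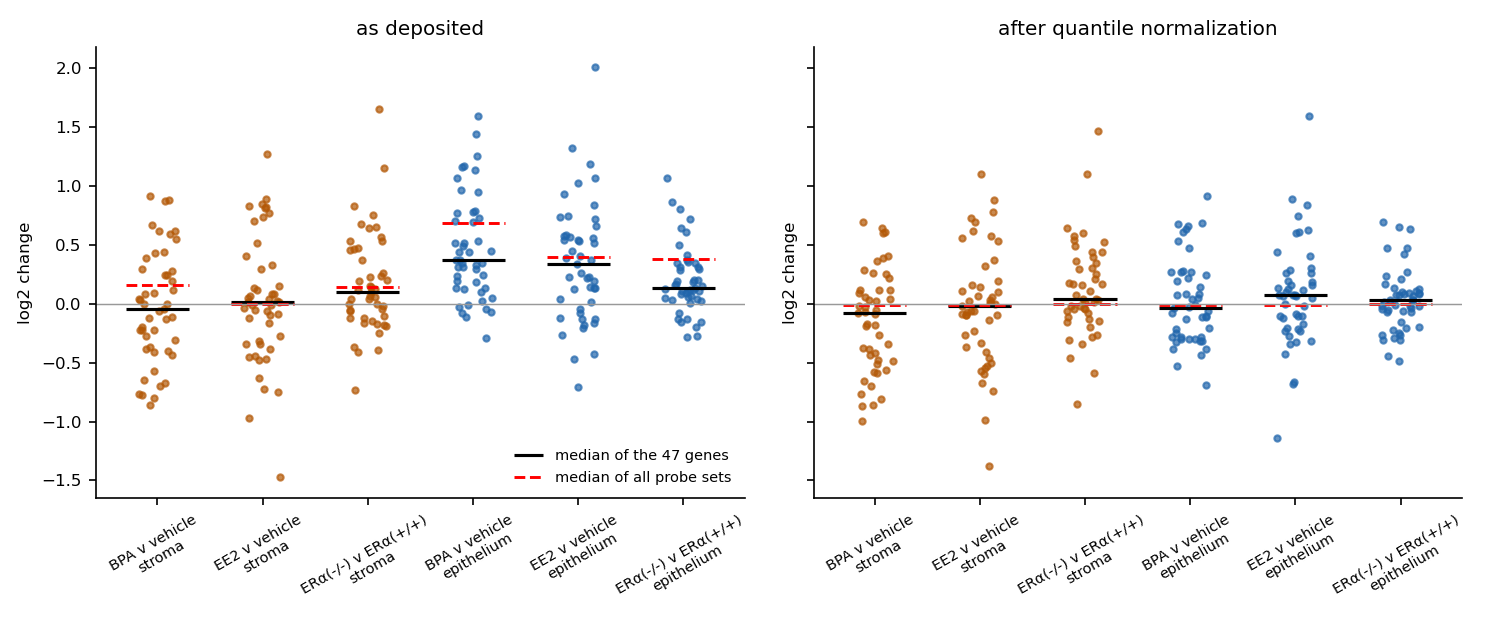
Log2 change of each of the 47 genes for BPA and EE2 against vehicle and for ERα(-/-) against ERα(+/+), in the stroma (brown) and the epithelium (blue), as deposited and after quantile normalization. Points are genes, black bars their median and dashed red bars the median of all probe sets. For BPA in the epithelium the medians were 0.37 for the genes and 0.68 for all probe sets as deposited, and −0.03 and −0.01 after normalization.

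The last question was whether ERα mattered. Between ERα(-/-) and ERα(+/+) fetuses none of the 47 genes was called in the stroma (0.00222% of all probe sets) or in the epithelium (0%). The medians were 0.10 in the stroma, beside 0.14 for all probe sets, and 0.13 in the epithelium, beside 0.38. With arrays scaled to one median they were −0.10 and −0.38, and after quantile normalization 0.04 and 0.03. In the stroma Kif4 had 66.8 to 252 in ERα(-/-) and 3.1 to 186 in ERα(+/+) fetuses, overlapping, a log2 change of 1.65 (95% interval 0.15 to 3.15, adjusted p = 1.00 from limma), the only gene of the 47 at an unadjusted p under 0.05, beside 2.91% of all probe sets higher. Chek1 (−0.74), Ccne2 (0.83), Foxm1 (0.47) and Mcm3 (0.47) came next. In the epithelium Gins2 had 304 to 1086 in ERα(-/-) and 156 to 676 in ERα(+/+) fetuses, overlapping, and 0.87 (95% interval 0.21 to 1.52, adjusted p = 0.557), beside 7.86% of all probe sets higher at an unadjusted p. Kif4 (0.72), Tpx2 (0.65), Cenpf (0.81) and Ccne2 (0.50) came next.

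Whether an exposure acted differently in the genotypes was tested as an interaction, and none of the 47 genes was called in either compartment, nor was any probe set (0%). In the stroma the smallest p were those of Bub1 for BPA (1.92, with Cenpf 1.96, Anln 1.79, Mcm2 1.96 and Tk1 1.85) and Chek1 for EE2 (1.89, with Nusap1 1.95, Foxm1 1.12, Mcm2 1.46 and Cdk1 −0.81), all at an adjusted p of 1.00 from limma. The median of the BPA interaction in the stroma was 0.65 (42 of 47 genes above 0, as were 64.4% of all probe sets), beside 0.45 for all probe sets, and 0.06 after quantile normalization. In the epithelium Tpx2 led for BPA (−1.85, adjusted p = 1.00, with Bub1 1.19, Cdt1 −1.65, Cenpe 1.41 and Kif11 1.07) and Bub1 for EE2 (1.77, adjusted p = 0.807, with Gins2 1.31, Nusap1 1.19, Cdk1 1.25 and Ccne2 1.24). Tpx2 in ERα(+/+) epithelium had 208 to 263 after vehicle and 546 to 2304 after BPA, and in ERα(-/-) epithelium 427 to 852 and 459 to 798. The ranges in ERα(+/+) epithelium did not overlap, but the share of all probe sets without overlap was not counted. That vehicle group also held the dimmest array of all, with a median of 10.9.

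Group means of genes that stand for some of the roles are given as mean ± SD (n = 3), in the order vehicle, BPA and EE2. In the epithelium of ERα(+/+) fetuses Mki67 had signals of 6186 ± 790, 6954 ± 629 and 5934 ± 696, and in that of ERα(-/-) fetuses 5860 ± 65.3, 6729 ± 154 and 6513 ± 677. Its stroma signals were 4800 ± 1077, 4661 ± 920 and 4749 ± 995 in ERα(+/+) and 4493 ± 1376, 5108 ± 637 and 4984 ± 776 in ERα(-/-) fetuses. For Mki67 every epithelium mean lay above every stroma mean. Top2a had 851 ± 119, 1070 ± 133 and 915 ± 245 in ERα(+/+) epithelium and 764 ± 174, 1128 ± 295 and 1223 ± 206 in ERα(-/-) epithelium. Its stroma signals were 559 ± 297, 395 ± 310 and 472 ± 264, then 484 ± 287, 490 ± 149 and 486 ± 31.1. The 6 stroma means of Top2a thus all lay below its 6 epithelium means. The share of all probe sets whose group means separate in this way was not counted, here or for Mcm6 and Pcna below. In sign, 71.2% of all probe sets were lower in the stroma.

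Cdk1 overlapped more between the compartments. It had 585 ± 355, 751 ± 205 and 362 ± 90.5 in ERα(+/+) epithelium and 311 ± 69.4, 580 ± 269 and 519 ± 42 in ERα(-/-) epithelium. In the stroma it had 189 ± 88.4, 277 ± 60 and 451 ± 308, then 210 ± 109, 411 ± 70 and 250 ± 78.4, so that the EE2 mean of ERα(+/+) stroma lay above that of ERα(+/+) epithelium. Mcm2 had 482 ± 227, 723 ± 217 and 823 ± 682 in ERα(+/+) epithelium and 418 ± 128, 500 ± 189 and 605 ± 163 in ERα(-/-) epithelium. In the stroma Mcm2 had 575 ± 313, 158 ± 80.9 and 299 ± 290, then 239 ± 137, 305 ± 253 and 267 ± 116, and the vehicle mean of ERα(+/+) stroma lay above that of the epithelium. The other helicase subunit shown, Mcm6, had 3990 ± 1262, 5288 ± 769 and 4386 ± 1115 in ERα(+/+) epithelium and 4386 ± 436, 4999 ± 791 and 5356 ± 1005 in ERα(-/-) epithelium. Its stroma signals were 3180 ± 137, 2296 ± 602 and 3226 ± 1640, then 2472 ± 1072, 3295 ± 394 and 2761 ± 769, all below the epithelium means.

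Pcna had 2330 ± 953, 1943 ± 140 and 1736 ± 663 in ERα(+/+) epithelium and 1798 ± 328, 2436 ± 568 and 2200 ± 729 in ERα(-/-) epithelium. In the stroma Pcna had 1400 ± 130, 941 ± 508 and 1292 ± 552, then 1108 ± 946, 1279 ± 210 and 1069 ± 437, below the epithelium throughout. Rrm2 had 3353 ± 399, 3330 ± 380 and 2777 ± 1396 in ERα(+/+) epithelium and 3337 ± 704, 3015 ± 257 and 3262 ± 644 in ERα(-/-) epithelium. In the stroma Rrm2 had 3036 ± 501, 1656 ± 497 and 2497 ± 1291, then 2670 ± 774, 2275 ± 636 and 2034 ± 1079. The Rrm2 stroma mean lay within 1 SD of the epithelium mean in the vehicle groups of both genotypes and in ERα(+/+) EE2, and no exposure or genotype difference of these 7 genes passed the test.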

How the data were processed

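RNA from laser-captured epithelium and stroma of 18 glands was amplified and hybridized to 36 arrays with 45101 probe sets. The labels name GCOS (version not given in the sources used here) for the processing, and the methods describe RMA and logs. The intensity values deposited by the authors are nevertheless linear, 39 of them 0, and their scaling before deposit is not stated, so array brightness may enter every comparison and quantile normalized values stand beside the results. Arrays carry no read depth, and their number limits the precision.

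Signals under 0.1 were set to 0.1 before log2. Limma 3.58.1 with statmod 1.5.0, in R 4.3.3, fitted each compartment's 6 groups for exposure, genotype and their interactions, and compared compartments as differences within the gland. P-values were adjusted by Benjamini-Hochberg across the 45101 probe sets of the array. The methods took both compartments from 1 gland of a fetus, but the labels give only replicate numbers. Taking the same number as the same gland is an assumption, and the residuals of these pairs correlated at −0.04 to 0.16 (mean 0.08, over 0.1 in 7 of 18 pairs). The fits were tested on simulated data, with a set log2 change added to 50 probe sets. Between compartments, an added change of 1 was called in 4% of them, 2 in 58% and 3 in 96%. The simulated probe sets varied independently of each other and few were changed, whereas 20.3% of all probe sets were called between compartments in the data. The adjustment is less strict where many are called, so these shares do not carry over to that comparison. For BPA against vehicle, an added change of 1 was called in 0% for each compartment. A BPA change of 2 was called in 4% (stroma) and 20% (epithelium), and a change of 3 in 34% and 66%. Where no BPA change was called, changes of 1 to 2 could thus have been missed. Genes, marker lists and motifs were chosen with earlier results of these data known. Full statistics are given for the 12 largest called changes of a comparison, or the 5 smallest p are given as not passing where fewer than 5 passed. Group means are given for bearers of each role chosen by name, of which Ccnb1 had no probe set, and other genes are named by role. The methods' t-test at an unadjusted p under 0.05 with at least a 2-fold change was computed as an alternative, beside quantile and median scaling, an offset of 16, a filter at a mean of 50, other variance models, array weights, replicate blocks, other probe sets and each array or gland left out. Leaving out the 3 dimmest arrays was an alternative added after seeing the data. Without their glands 16.9% of all probe sets were called between compartments, beside 20.3% with all glands. Promoter windows and coordinates came from RefSeq (GRCm38.p6).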

Additional observations from a re-analysis of the deposited data

How the results depend on the processing

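Of 875 recomputed counts and medians over 30 results, 865 stayed within the limits set for a change and 10 moved. These limits were wide. A median stayed if it shifted by less than the SD between replicates, 0.58 in the stroma, 0.40 in the epithelium and 0.65 for gland differences. A count of 0 stayed if it was again 0, and most recomputations only left out 1 array or gland. The share that stayed therefore says little about how robust the results are. The count of genes lower in the stroma, 34, was 15 with arrays scaled to one median, 21 without the arrays of high muscle signal (an alternative chosen after seeing the data), 16 of 33 at the second probe set, and 26 to 36 when 1 gland was left out. The median difference was −1.05 to −0.89 when 1 gland was left out, −0.70 after quantile normalization and −0.57 with arrays scaled to one median. Scaling to one median turned the median change in the epithelium to −0.53 for BPA, −0.20 for EE2 and −0.38 for ERα(-/-) against ERα(+/+), and that of the EE2 by genotype interaction to −0.47. Quantile normalization gave −0.033 for BPA in the epithelium and 0.060 for the BPA by genotype interaction in the stroma, and without the arrays of high muscle signal the EE2 by genotype interaction in the stroma had −0.54. Under the scaling to one median Ccne2 had −0.013 for ERα(-/-) against ERα(+/+) in the epithelium and Cenpa −0.11 for BPA in the epithelium. The causes were not tested. Of the 12 largest calls, Cdc6 and, under the scaling to one median (−0.91), Cenpe were lost in other settings, and smaller calls such as Cdk1, Tyms and Rrm1 were lost after quantile normalization. The settings counted for single genes did not include the second probe set, at which Aurka and Bub1 did not pass.

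With the replicate number as a block in the comparisons of exposure and genotype, 0 of the 47 genes were called, as without it. Between compartments, 32 genes were called with no replicate block (16.7% of all probe sets in either direction) and 39 with the gland as a random block (21.8%, correlation 0.16). By the methods' t-test 21 genes were lower in the stroma at an unadjusted p with a 2-fold change (14.8% of all probe sets) and 38 after Benjamini-Hochberg adjustment (17.6% in either direction). For exposure it selected Tk1, Bub1b and Tpx2 as higher after BPA (10.5% of all probe sets) and Tk1 and Bub1b after EE2 (3.94%) in the epithelium, Prc1 as lower after EE2 in the stroma (1.85%) and Ccne2 as higher for BPA against EE2 in the epithelium (2.45%), and for genotype Kif4 as higher in the stroma (2.11%), none of them after adjustment. No change of exposure, genotype or interaction was called with any array left out, and the medians then lay in the stroma between −0.26 and 0.17 for BPA and between −0.21 and 0.18 for EE2, and were 0.26 and 0.48 at the extremes for BPA and 0.19 and 0.42 for EE2 in the epithelium. For BPA against EE2 they lay between −0.31 and 0.15 in the stroma and 0.02 and 0.22 in the epithelium, and for genotype between −0.03 and 0.23 and between 0.08 and 0.20.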
